A study of Homo sapiens with 12 samples.

Results

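Hippo-YAP signalling was followed through 10 genes, chosen by name, in hCMEC/D3 cells, an immortalised line of human brain microvascular endothelial cells used to model the blood-brain barrier. The 10 genes are the transcriptional coactivators YAP1 and WWTR1, their DNA-binding partner TEAD1, the pathway regulators LATS2, AMOTL2 and AJUBA, and the target genes CYR61, CTGF, ANKRD1 and AXL. They are 10 of the 58735 genes in the deposited table, and each of the 10 passed the filter on low values. RNA was sequenced from cells given SiNPs of 58 nm (4 libraries), from cells given SiNPs of 35 nm (4 libraries) and from untreated control cells (4 libraries). Both particle sizes were given at 100 µg/mL for 24 h. The labels name no vehicle for the controls, and nothing in them says that libraries are separate cultures, so the p-values cover a spread that may be technical only. The groups share a single purchased cell line, and the labels list no genetic difference between them.

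In the Hippo pathway, a kinase cascade ends in LATS1 and LATS2, which phosphorylate YAP1 and the WWTR1 protein TAZ and keep them in the cytoplasm. When the cascade is less active, both coactivators enter the nucleus, bind TEAD factors and switch on target genes such as CTGF, CYR61 and ANKRD1. In endothelial cells the pathway is known to respond to flow, matrix stiffness, cell density and actin tension, and to take part in vessel growth and barrier maturation. Phosphorylation and nuclear entry are changes of protein, which RNA levels do not measure.

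Expression is given as FPKM, a read density per kilobase of gene that the authors scaled to library size. Changes are log2 fold changes of log2(FPKM + 1) from limma, with p-values adjusted by the Benjamini-Hochberg method over 12176 genes that averaged 1 FPKM or more. The words rose and fell are kept for genes with an adjusted p below 0.05. Gene reads per library numbered 9472317 to 10466096 at 58 nm, 10039379 to 10469143 at 35 nm and 10039422 to 10678269 in controls. The correlation of a library's deviations with GC content over genes ran from -0.296 to 0.358 at 58 nm, from 0.151 to 0.555 at 35 nm and from -0.457 to -0.231 in controls. The same correlation with gene length ran from -0.319 to 0.164 at 58 nm, from -0.236 to -0.0619 at 35 nm and from 0.155 to 0.172 in controls. Mitochondrial genes took 2.70% to 3.11% of gene reads at 58 nm, 1.83% to 1.95% at 35 nm and 3.05% to 3.18% in controls. For all 3 measures the 35 nm and control libraries did not overlap; fits with the length and GC trends removed are given below where they matter, and the part of mitochondrial reads in the results was not tested. By GC correlation, 58 nm library 1 (0.358) and 35 nm library 3 (0.555) stood highest of their groups. By length correlation, 58 nm library 1 (-0.319) stood apart from the other 58 nm libraries (0.0898 to 0.164). Over genes, chi-square per degree of freedom between 58 nm library 1 and the others of its group was 6.36 to 7.74, against 2.28 to 2.38 among those others, 1.99 to 4.62 at 35 nm and 2.54 to 3.41 in controls. Endothelial markers were uneven in controls. FLI1 averaged 7.01 FPKM, TIE1 5.26 FPKM, ESAM 1.69 FPKM, CDH5 1.44 FPKM, PECAM1 1.42 FPKM and VWF 1.02 FPKM, while ERG averaged 0.362 FPKM, TEK 0.176 FPKM and CLDN5 0.117 FPKM, and KDR was listed at 0. The summed level of 10 endothelial markers was 17.9 to 18.5 FPKM at 58 nm, 17.1 to 18.4 FPKM at 35 nm and 17.8 to 20 FPKM in controls. In the same cells the summed level of 8 mural and fibroblast markers was 301 to 319 FPKM at 58 nm, 307 to 329 FPKM at 35 nm and 274 to 295 FPKM in controls. COL1A1, the fibrillar collagen gene that leads this sum, averaged 148 FPKM at 58 nm, 157 FPKM at 35 nm and 129 FPKM in controls. Of these 8 genes 5 were tested. COL1A1 rose at 58 nm against control, where 4.13% of all genes tested were called. At 35 nm against control COL1A1 and CSPG4 rose and PDGFRB fell, where 35.4% of all genes tested were called. Of the 10 endothelial markers 6 were tested, and 0 were called against control at either size. Against control the mural and fibroblast sum moved in the same direction as CYR61, CTGF and AXL, described below. The ranges of the sum at 58 nm and at 35 nm overlapped. Its genes did not all go that way. COL1A1, COL1A2 and CSPG4 averaged higher in both particle groups than in controls, and PDGFRB, LUM, RGS5 and DES lower. LUM averaged 7.80 FPKM at 58 nm, 7.74 FPKM at 35 nm and 8.63 FPKM in controls. The part of this sum in the changes of CYR61, CTGF and AXL was not tested. In these bulk libraries, more cells of a kind and more RNA per cell cannot be told apart.

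TEAD factors bind the letters GGAATG, and the promoter sequences of these genes show where those letters lie. RefSeq promoters (GRCh38.p14, the 250 bases before a transcription start) were matched for 8 of the 10 genes, with 12 promoters in all; CYR61 and TEAD1 had no entry in the table used. GGAATG was searched on both strands, and at least 1 match was found in 6 of these genes. Of all 35114 RefSeq promoters, 11.9% held the motif, 0.940% held at least 2 copies and 0.0826% held at least 3. These shares are per promoter, whereas the count of 6 is per gene and takes in every promoter listed for it. The CTGF promoter is shown whole because it held 3 copies, at 169, 104 and 95 bases before the start. It lies at chr6:131951373-131951622 on the minus strand, and capitals mark the motif.
CTGF: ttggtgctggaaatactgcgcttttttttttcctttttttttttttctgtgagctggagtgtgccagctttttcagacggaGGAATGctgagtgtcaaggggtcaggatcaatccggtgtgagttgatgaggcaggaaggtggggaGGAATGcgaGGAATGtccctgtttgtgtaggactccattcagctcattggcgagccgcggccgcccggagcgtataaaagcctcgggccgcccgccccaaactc

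The other matches are shown as windows of 30 bases, turned so that the motif, in capitals, reads GGAATG. They are set under each other to show the bases on either side of the motif. ANKRD1 has 2 windows, at chr10:90921290-90921319 and chr10:90921198-90921227, both on the minus strand. The YAP1 window is chr11:102110273-102110302 on the plus strand, the AMOTL2 window chr3:134374499-134374528 on the plus strand, the AJUBA window chr14:22976884-22976913 on the minus strand and the AXL window chr19:41226531-41226560 on the minus strand.
ANKRD1: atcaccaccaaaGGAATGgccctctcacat
ANKRD1: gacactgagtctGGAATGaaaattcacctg
YAP1: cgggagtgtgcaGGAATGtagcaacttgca
AMOTL2: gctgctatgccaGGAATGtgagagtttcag
AJUBA: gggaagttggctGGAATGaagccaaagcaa
AXL: agcggagggagtGGAATGgtgcaaagtctg
The AMOTL2, AJUBA and AXL matches lie in promoter 2 of each gene as listed, and not in promoter 1. The order of listing does not say which promoter is the main one. In the WWTR1 and LATS2 promoters these letters were not in the windows searched. The AP-1 motif TGACTCA, searched the same way, was in the promoters of 0 of the 8 genes and in 4.20% of all promoters. A match is a description of the letters, not a measured binding site.

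The secreted matrix proteins CYR61 and CTGF carried the largest rises of the 10 genes in both comparisons with control. Counting the 10 genes, 4 rose and 0 fell at 58 nm against control (AJUBA, CYR61, CTGF and AXL), where 4.13% of all genes tested were called, 2.18% as higher and 1.95% as lower. At 35 nm against control 5 rose (the same genes and AMOTL2) and 1 fell (WWTR1), where 35.4% of all genes tested were called, 20.2% as higher and 15.2% as lower. Between the sizes, at 58 nm against 35 nm, 0 were higher and 3 were lower (LATS2, CYR61 and AXL), where 11.4% of all genes tested were called, 3.54% as higher and 7.81% as lower. Over all genes, the split of calls depended on the scaling: 265 higher and 238 lower at 58 nm against control became 184 and 299 with length and GC trends removed, and 2463 and 1852 at 35 nm against control became 1955 and 2419 under upper-quartile rescaling, which also made 655 and 703 of 431 and 951 at 58 nm against 35 nm. The median log2 fold change of the 10 genes was 0.069 at 58 nm against control and 0.13 at 35 nm against control, beside medians of 0.0098 and 0.0031 over all genes tested. It was -0.091 at 58 nm against 35 nm, beside 0.0033 over all genes. The FPKM values of both groups did not overlap for 5 of the 10 genes at 58 nm against control (13.5% of all genes), for 6 at 35 nm against control (36.0% of all genes) and for 5 at 58 nm against 35 nm (16.2% of all genes). The 3 comparisons share groups: both comparisons with control use the same 4 control libraries. The 10 genes were chosen with earlier results of these data known, so the counts beside the shares are a description and not a test.

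**Figure D1:**
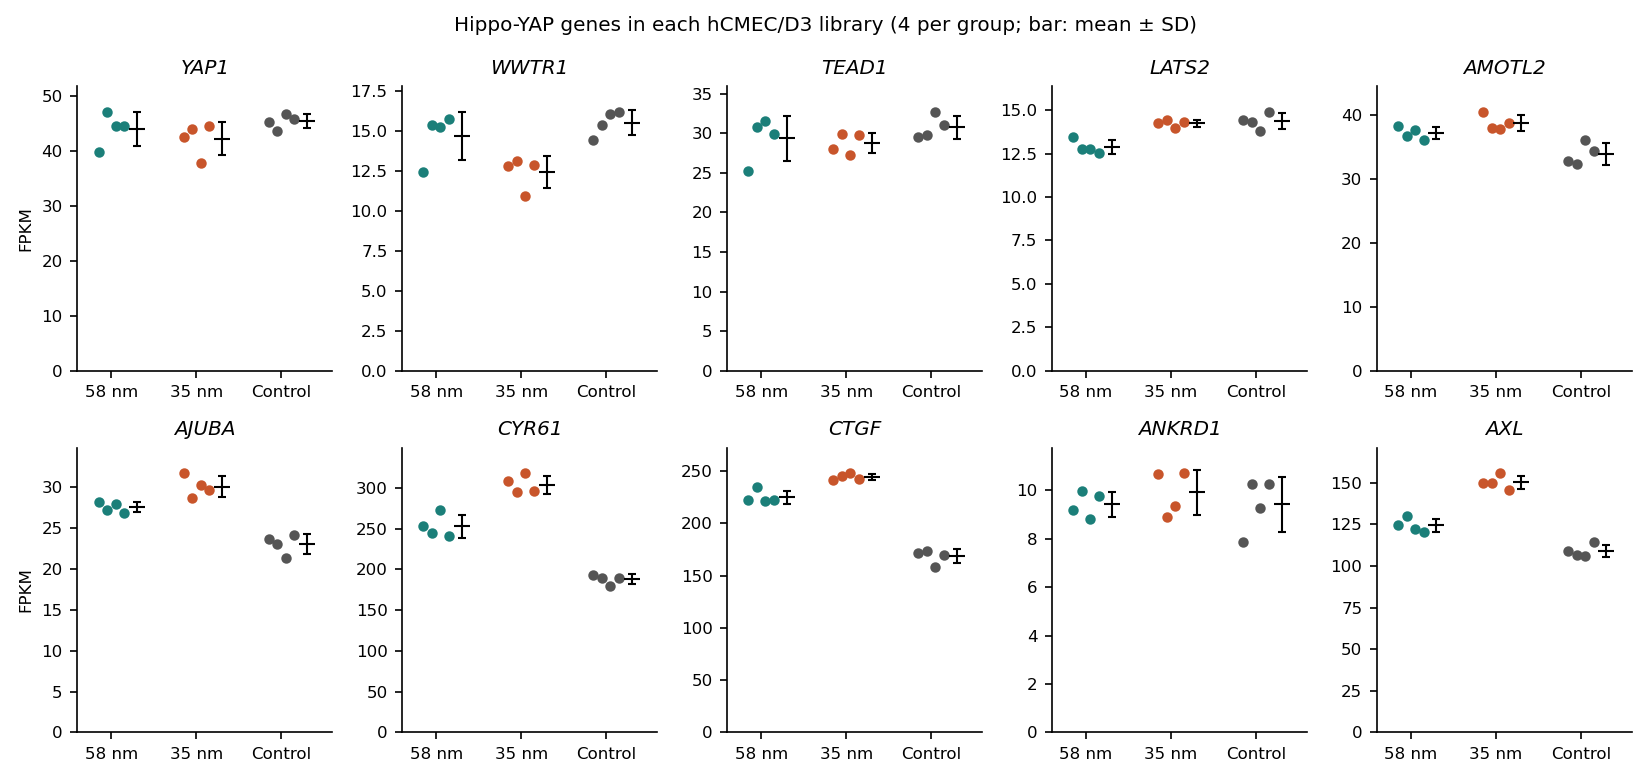
FPKM of the 10 genes in each library (points, 4 per group, in order of library number) with the group mean ± SD (bar); each vertical axis starts at 0. CYR61, CTGF, AJUBA and AXL sit higher in both particle groups than in controls, and YAP1, TEAD1 and ANKRD1 overlap between the groups.

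Neither coactivator rose. YAP1 (ENSG00000137693, chr11:102110461-102233423, plus strand) codes for the main coactivator of the pathway. It was read at 39.8, 47.1, 44.5 and 44.5 FPKM at 58 nm, at 42.5, 43.9, 37.9 and 44.5 FPKM at 35 nm and at 45.3, 43.7, 46.8 and 45.8 FPKM in controls. The 3 groups overlapped, with the lowest values in 58 nm library 1 and 35 nm library 3. Its log2 fold change was -0.047 at 58 nm against control (adjusted p = 0.699, 95% interval -0.17 to 0.077) and -0.11 at 35 nm against control (adjusted p = 0.174, interval -0.23 to 0.019). The 35 nm value passed the threshold under quantile normalization (-0.21, adjusted p = 0.0219) and with limma-voom on recovered reads (adjusted p = 0.049).

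WWTR1 (ENSG00000018408, chr3:149517235-149736714, minus strand), which codes for the YAP1 relative TAZ, fell at 35 nm. Its libraries held 12.4, 15.3, 15.2 and 15.7 FPKM at 58 nm, 12.8, 13.1, 10.9 and 12.8 FPKM at 35 nm and 14.4, 15.4, 16.0 and 16.2 FPKM in controls. Each 35 nm library lay below each control library, whereas the 58 nm group overlapped with both. The log2 fold change at 35 nm against control was -0.30 (SE 0.0745, adjusted p = 0.00746), from means of 12.4 ± 1.01 and 15.5 ± 0.792 FPKM (SD, n = 4 each). With the trends on gene length and GC content removed it was -0.15 (adjusted p = 0.0453). It was -0.078 at 58 nm against control (adjusted p = 0.609) and 0.22 at 58 nm against 35 nm (adjusted p = 0.0707). The last value was called under 4 of 21 alternatives. It passed without 58 nm library 1 (0.30, adjusted p = 0.00703) and with limma-voom on recovered reads (0.26, adjusted p = 0.0169). It also passed with a filter at 5 FPKM (adjusted p = 0.0447) and under upper-quartile rescaling (0.25, adjusted p = 0.0496). An antisense gene, WWTR1-AS1, shares 9.45% of the exon bases of WWTR1 and had at most 7 reads in a library; without strand information their reads cannot be told apart. Antisense neighbours that overlap exons of YAP1, CTGF and AXL had at most 0, 2 and 13 reads in a library.

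TEAD1 (ENSG00000187079, chr11:12674591-12944483, plus strand) codes for the transcription factor that brings both coactivators to DNA. Its values were 25.2, 30.9, 31.5 and 29.9 FPKM at 58 nm, 28.1, 29.9, 27.3 and 29.7 FPKM at 35 nm and 29.5, 29.7, 32.7 and 31.1 FPKM in controls. All pairs of groups overlapped. The log2 fold change was -0.069 at 58 nm (adjusted p = 0.599, interval -0.21 to 0.070) and -0.094 at 35 nm (adjusted p = 0.279, interval -0.23 to 0.045), each against control. YAP1, WWTR1 and TEAD1 are the longest of the 10 genes (6296, 8413 and 10279 exon bases) and have 43.5%, 40.9% and 41.3% GC. All of them were lowest within their groups in 58 nm library 1 and in 35 nm library 3, the libraries whose deviations rose most with GC content. Their levels went together over the 12 libraries, with pairwise Pearson r of 0.769 to 0.849, and 0.827 to 0.867 once group means were taken out. These correlations are descriptions: the points share depth, length and GC bias.

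LATS2 (ENSG00000150457, chr13:20973032-21061547, minus strand), a kinase that inhibits YAP1 and is itself a YAP target, was lowest at 58 nm. It had 13.5, 12.7, 12.7 and 12.5 FPKM at 58 nm, 14.2, 14.4, 14.0 and 14.3 FPKM at 35 nm and 14.4, 14.3, 13.8 and 14.9 FPKM in controls. Each 58 nm library lay below each library of the other groups, while the 35 nm and control groups overlapped. The log2 fold change at 58 nm against 35 nm was -0.14 (SE 0.0393, adjusted p = 0.0421). This call held under 6 of 21 alternatives, and over all 21 the adjusted p ran from 0.0160 to 0.127. It was lost without 35 nm library 1, 2, 3 or 4, 58 nm library 2, 3 or 4, or control library 1 or 2 (adjusted p = 0.0556 to 0.117), and with the replicate number as a block (adjusted p = 0.0642). No filter on low values (adjusted p = 0.0689), quantile normalization (0.0775) and upper-quartile rescaling (0.0946) lost the call too. So did length and GC trends removed (-0.097, adjusted p = 0.0983) and limma-voom (adjusted p = 0.127). The LATS2 value at 58 nm against control was -0.15 (adjusted p = 0.0539), passing the threshold under 5 of 21 alternatives, among them without 58 nm library 1 (-0.17, adjusted p = 0.0371). At 35 nm against control it was -0.011 (adjusted p = 0.849, interval -0.096 to 0.074).

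AMOTL2 (ENSG00000114019, chr3:134355874-134375479, minus strand) codes for an angiomotin-family protein that holds YAP1 at junctions and actin. The libraries gave 38.3, 36.7, 37.6 and 36.1 FPKM at 58 nm, 40.5, 38.0, 37.9 and 38.8 FPKM at 35 nm and 32.9, 32.3, 36.1 and 34.3 FPKM in controls. The 35 nm group lay wholly above the controls, and the 58 nm group overlapped with both other groups. AMOTL2 rose at 35 nm against control by a log2 fold change of 0.19 (SE 0.0415, adjusted p = 0.00361), a call that was lost with length and GC trends removed (0.093, adjusted p = 0.105). At 58 nm it was 0.13 (adjusted p = 0.10), and between the particle sizes -0.059 (adjusted p = 0.382, interval -0.15 to 0.031).

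AJUBA (ENSG00000129474, chr14:22971174-22982642, minus strand) codes for a LIM-domain protein that binds LATS kinases at junctions under tension and restrains them. AJUBA was read at 28.2, 27.2, 27.9 and 26.9 FPKM at 58 nm, at 31.7, 28.7, 30.3 and 29.7 FPKM at 35 nm and at 23.7, 23.1, 21.3 and 24.2 FPKM in controls. No 2 groups overlapped, with the 35 nm libraries highest and the controls lowest. It rose by a log2 fold change of 0.25 (SE 0.0450, adjusted p = 0.00774) at 58 nm and of 0.37 (adjusted p = 6.22e-05) at 35 nm, each against control. Over 21 alternatives these values ran from 0.21 to 0.27 at 58 nm and from 0.29 to 0.39 at 35 nm, and all were called. The difference between the sizes, -0.12, did not pass (adjusted p = 0.0991, interval -0.22 to -0.024 before adjustment).

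CYR61 (ENSG00000142871, chr1:85580761-85583962, plus strand), now also called CCN1, codes for a secreted matricellular protein that binds integrins and is a standard readout of YAP activity. Its libraries held 253, 244, 273 and 241 FPKM at 58 nm, 309, 295, 318 and 296 FPKM at 35 nm and 194, 189.8, 179 and 189 FPKM in controls. The groups were fully apart from each other: controls lowest, 58 nm between, 35 nm highest. Group means were 253 ± 14.2 FPKM at 58 nm, 304 ± 11.1 FPKM at 35 nm and 188 ± 6.04 FPKM in controls (SD, n = 4 each). The log2 fold change was 0.42 (SE 0.0445, adjusted p = 8.02e-05) at 58 nm and 0.69 (adjusted p = 3.72e-07) at 35 nm, each against control. The level at 58 nm was lower than at 35 nm, by a log2 fold change of -0.27 (adjusted p = 0.00264). That difference was -0.12 under quantile normalization (adjusted p = 0.0784). Both changes against control were called under each of 21 alternatives, which include fits with length and GC trends removed. Over these alternatives they ran from 0.35 to 0.45 at 58 nm and from 0.48 to 0.71 at 35 nm.

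CTGF (ENSG00000118523, chr6:131948176-131951373, minus strand), now also called CCN2, is the sister gene of CYR61 and codes for a secreted protein that promotes matrix production. CTGF stood at 222, 234, 222 and 222 FPKM at 58 nm, at 242, 246, 248 and 242 FPKM at 35 nm and at 172, 174, 159 and 170.1 FPKM in controls. Again no 2 groups overlapped. Means were 225 ± 6.14 FPKM at 58 nm, 244 ± 2.95 FPKM at 35 nm and 169 ± 6.82 FPKM in controls (SD, n = 4 each). It rose by a log2 fold change of 0.42 (SE 0.0361, adjusted p = 1.25e-05) at 58 nm and of 0.53 (adjusted p = 4.24e-07) at 35 nm. With length and GC trends removed the 35 nm change was 0.36 and stayed called. The difference between the sizes was -0.12 (adjusted p = 0.0523), and over 21 alternatives it ran from -0.14 to -0.0032, with adjusted p from 0.0388 to 0.977. It was called under 3 of them, without control library 3 (0.0388), with a filter at 5 FPKM (0.0479) and without 58 nm library 2 (0.0489). It was -0.0032 under quantile normalization and -0.023 with length and GC trends removed.

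ANKRD1 (ENSG00000148677, chr10:90912096-90921276, minus strand) codes for an ankyrin-repeat protein of muscle and vessel cells and is the third gene commonly used to read YAP activity. It was the lowest of the 10 genes, with 163 to 222 reads per library. Its values were 9.16, 9.95, 8.82 and 9.75 FPKM at 58 nm, 10.7, 8.91, 9.34 and 10.7 FPKM at 35 nm and 7.85, 10.3, 9.27 and 10.3 FPKM in controls. The groups overlapped throughout. The log2 fold change was 0.0065 at 58 nm (adjusted p = 0.980, interval -0.17 to 0.18) and 0.070 at 35 nm (adjusted p = 0.537, interval -0.11 to 0.25), each against control. The interval at 58 nm ends below the CYR61 and CTGF values of 0.42, and the interval at 35 nm ends below their values of 0.69 and 0.53; the differences between these genes were not tested.

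AXL (ENSG00000167601, chr19:41219203-41261766, plus strand), a receptor tyrosine kinase for the ligand GAS6 and a reported YAP target, rose with both particle sizes. Its FPKM values were 125, 130.1, 122 and 121 at 58 nm, 149.9, 149.8, 156 and 146 at 35 nm and 109, 106, 106 and 114 in controls. The 3 groups did not overlap, and the 58 nm values lay nearer to the controls. Against control the log2 fold change was 0.19 at 58 nm (SE 0.0372, adjusted p = 0.0125) and 0.46 at 35 nm (adjusted p = 2.41e-06). Over 21 alternatives these values ran from 0.15 to 0.21 at 58 nm and from 0.32 to 0.48 at 35 nm. The change between the sizes was -0.27 (adjusted p = 0.000852), called under each of 21 alternatives. The call at 58 nm against control was lost under quantile normalization (adjusted p = 0.0540) and without control library 3 (0.18, adjusted p = 0.0521).

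**Figure D2:**
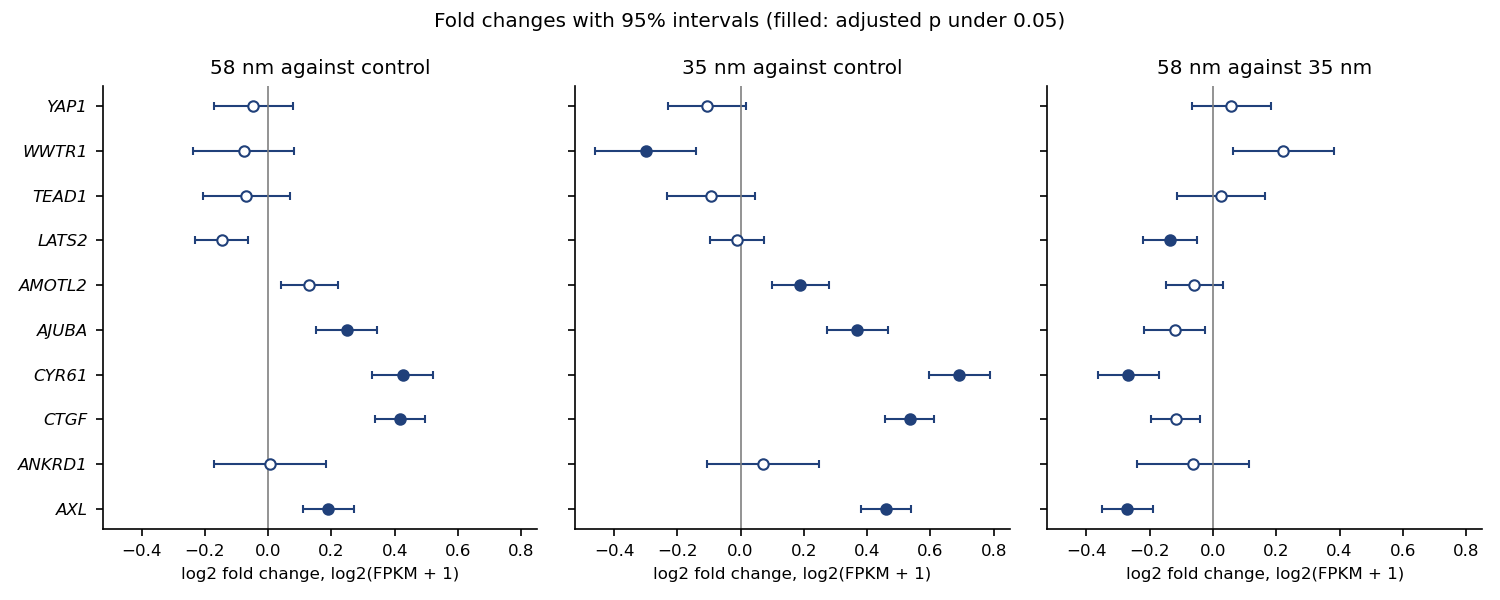
Log2 fold changes of the 10 genes on the log2(FPKM + 1) scale with 95% intervals, in 3 comparisons; filled points have an adjusted p under 0.05. CYR61 has the value farthest to the right in both comparisons with control (0.42 at 58 nm and 0.69 at 35 nm), and WWTR1 is the filled point left of 0 at 35 nm (-0.30).

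In controls the levels, which are set per gene length, ran in the order CYR61, CTGF, AXL, YAP1, AMOTL2, TEAD1, AJUBA, WWTR1, LATS2 and ANKRD1. CYR61 ranked 103, CTGF 123 and AXL 224 among 58735 genes, and ANKRD1 ranked 5190. Among neighbours in this order, AMOTL2 and TEAD1 overlapped over the 4 control libraries, as did WWTR1 and LATS2. Within groups, the coefficient of variation over the 10 genes in the 3 groups ran from 1.21% to 12.1%, with a median of 4.09%.

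**Figure D3:**
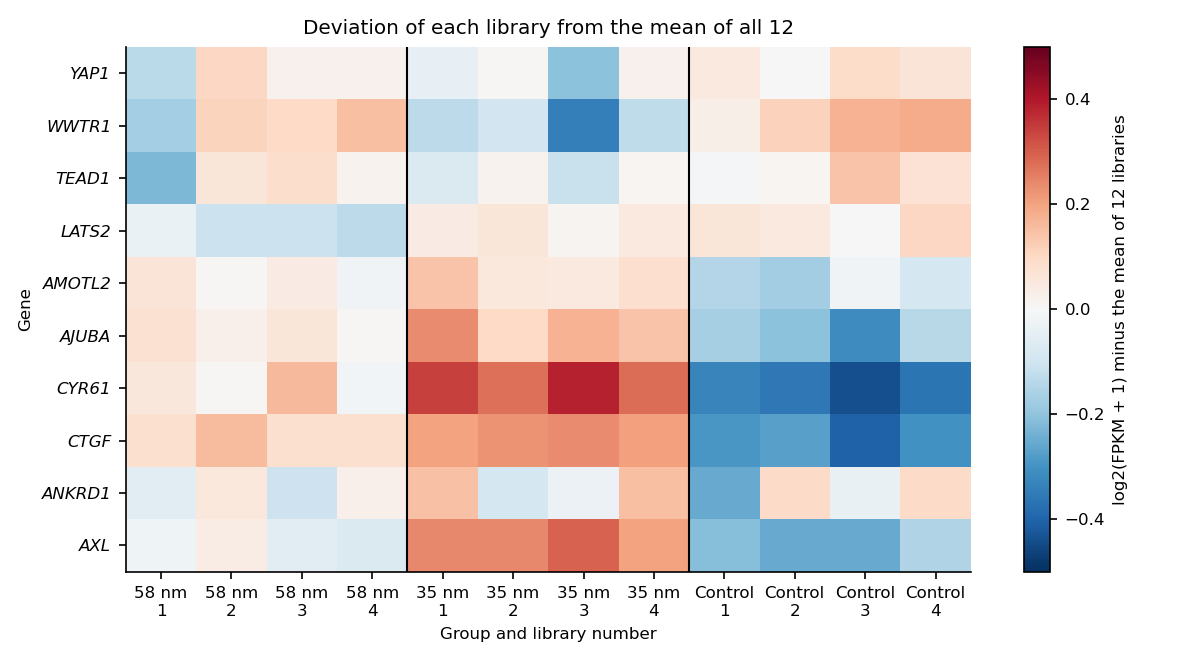
Deviation of log2(FPKM + 1) from the mean of the 12 libraries for the 10 genes (rows) in each library (columns, 4 per group); red is above the mean and blue below. AJUBA, CYR61, CTGF and AXL are red at 35 nm and blue in controls, while YAP1, WWTR1 and TEAD1 are bluest of their groups in 58 nm library 1 and 35 nm library 3.

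AJUBA, CYR61, CTGF and AXL, the genes that rose at both sizes, also had high pairwise correlations, which restate that difference between the groups. Their Pearson r lay between 0.903 and 0.969 over the 12 libraries, and between 0.197 and 0.640 with group means taken out. AMOTL2, which rose at 35 nm, had r of 0.796 to 0.844 with these genes over the 12 libraries, and of -0.763 (CTGF) to -0.0261 (AJUBA) with group means taken out. Over the 7663 other genes averaging 5 FPKM or more, 320 had r above 0.9 with CYR61 and 110 with CTGF. Among the 5 genes most like CYR61 were HNRNPUL1 (r = 0.976), TUBB4B (0.976) and MSN (0.973). Among those most like CTGF were ACLY (0.984), DANCR (0.972), CYR61 itself (0.961) and the pseudogene HMGB1P6 (0.955), whose reads are uncertain because of its near-identical parent gene. MSN links actin to the membrane, TUBB4B is a tubulin, and ACLY makes acetyl-CoA. These values describe 12 libraries in 3 groups, which share depth and GC bias.

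The balance between paired genes was read as a ratio of FPKM in each library, and 9 comparisons were tested. The CYR61 to CTGF ratio averaged 1.12 ± 0.0809 at 58 nm, 1.24 ± 0.0409 at 35 nm and 1.12 ± 0.0179 in controls (SD, n = 4 each). At 35 nm against control the log2 difference was 0.16 (exact two-sided permutation p = 0.0286, adjusted p = 0.0643 over the 9), and no smaller p is possible with 4 libraries a group. For WWTR1 to YAP1 the ratio was 0.333 ± 0.0183 at 58 nm, 0.294 ± 0.00658 at 35 nm and 0.341 ± 0.0160 in controls, with the 35 nm libraries below all others. The log2 difference was -0.21 at 35 nm against control and 0.18 at 58 nm against 35 nm (exact permutation p = 0.0286 and adjusted p = 0.0643 for each). LATS2 to its sister kinase LATS1 gave 1.79 ± 0.218 at 58 nm, 2.17 ± 0.178 at 35 nm and 1.85 ± 0.0547 in controls, a log2 difference of 0.23 at 35 nm against control (exact permutation p = 0.0286, adjusted p = 0.0643). None of the 9 passed after adjustment. Even the smallest possible p, 0.0286, became an adjusted p of 0.0643 here. Not passing therefore does not show that the ratios were alike between the groups.

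**Figure D4:**
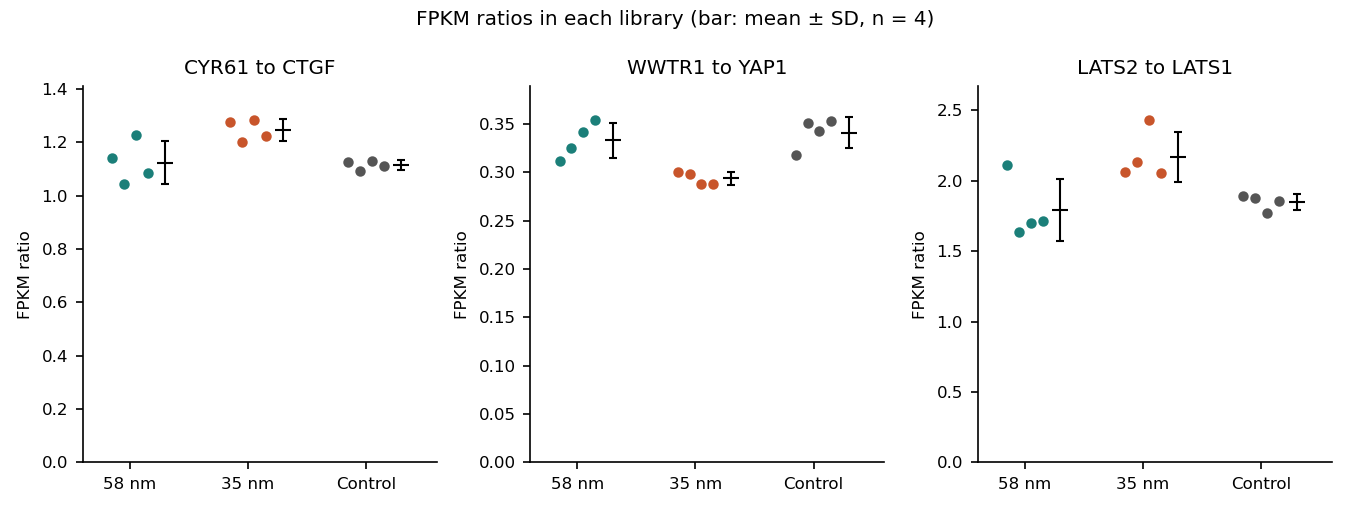
FPKM ratios in each library (points, 4 per group) with the group mean ± SD (bar); axes start at 0. The WWTR1 to YAP1 ratio is lowest at 35 nm (0.294), where the other 2 ratios are highest (1.24 for CYR61 to CTGF and 2.17 for LATS2 to LATS1).

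The kinases and regulators of the pathway upstream of YAP1 were read as a list. Of 29 listed genes 26 were tested: 0 were called at 58 nm against control, 7 rose and 5 fell at 35 nm against control, and 0 were higher and 5 lower at 58 nm against 35 nm. Of all genes tested, 4.13% were called at 58 nm against control, 20.2% rose and 15.2% fell at 35 nm against control, and 7.81% were lower at 58 nm against 35 nm, so the list's shares at 35 nm lay near those of all genes. Their median log2 fold changes were -0.037, -0.062 and 0.025 in the same order. NF2, the membrane scaffold merlin that activates LATS, was at 10.6 ± 0.90 FPKM at 58 nm, 13.0 ± 0.574 FPKM at 35 nm and 9.27 ± 0.659 FPKM in controls. NF2 rose at 35 nm by a log2 fold change of 0.45 (adjusted p = 0.000181), as did its partner WWC1, also known as KIBRA (0.49, adjusted p = 0.000109). The LATS1 kinase (-0.21, adjusted p = 0.0267) and the adaptor SAV1 (-0.29, adjusted p = 0.00678) fell at 35 nm. Another scaling changed the balance of this list at 35 nm, to 6 risen and 7 fallen under upper-quartile rescaling, 6 and 2 with length and GC trends removed, and 7 and 9 with limma-voom. Its 5 calls between the sizes became 10 without 58 nm library 1, 3 without 35 nm library 1 and 2 without 58 nm library 4, with no filter on low values or under quantile normalization. Of 7 TEAD family members and cofactors 5 were tested, and the 1 called was TEAD4 at 35 nm against control, with 20.2 ± 1.16 FPKM at 35 nm against 15.5 ± 1.67 FPKM in controls (0.37, adjusted p = 0.00614). With length and GC trends removed 2 of this list were called there, 1 higher and 1 lower, and without 58 nm library 4, 1 was called higher at 58 nm against control.

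Other genes reported as YAP targets did not all move the same way. Of 16 listed, 14 were tested. At 58 nm against control 2 rose and 0 fell, at 35 nm against control 5 rose and 4 fell, and at 58 nm against 35 nm 2 were higher and 4 lower. Over all genes tested the called shares were 4.13% at 58 nm against control, 35.4% at 35 nm against control and 11.4% at 58 nm against 35 nm. The median log2 fold changes were -0.043, 0.081 and -0.094. The 2 calls at 58 nm against control became 4 without 58 nm library 1, with the length trend removed or with limma-voom, 5 with length and GC trends removed and 1 with no filter. Between the sizes the 6 calls became 3 without 35 nm library 1 or 58 nm library 3 or 4, or with no filter. NUAK2, a kinase that acts on the actin cytoskeleton, had 9.85 ± 0.806 FPKM at 58 nm, 14.9 ± 0.890 FPKM at 35 nm and 6.93 ± 0.345 FPKM in controls. It rose by 0.45 at 58 nm (adjusted p = 0.000826) and by 1.00 at 35 nm (adjusted p = 2.72e-07) on the log2 scale; both values lie above those of the 10 genes, a difference that was not tested. FJX1, a secreted relative of the fly protein four-jointed, rose by 0.35 at 58 nm (adjusted p = 0.0123) and by 0.73 at 35 nm (adjusted p = 8.14e-06). CRIM1, GADD45A and CCDC80 also rose at 35 nm. MYOF (-0.32, adjusted p = 0.00281), NT5E (-0.27, adjusted p = 0.00102), ARHGEF17 (-0.30, adjusted p = 0.000413) and ASAP1 (-0.22, adjusted p = 0.0202) fell there.

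Actin-linked genes regulated by SRF and its MRTF coactivators, which share targets with YAP, were read as a list of 15, all tested. At 58 nm against control 6 rose, 0 fell and 9 were not called, where 2.18% of all genes tested were called higher. At 35 nm against control 11 rose, 0 fell and 4 were not called, where 20.2% of all genes were called higher. Between the sizes 0 were higher at 58 nm, 5 were lower and 10 were not called, where 7.81% of all genes were called lower. This list too was chosen with earlier results of these data known, so its counts are a description. The median log2 fold changes were 0.18, 0.35 and -0.20. TAGLN, an actin-binding protein of contractile cells, was at 10.1 ± 0.595 FPKM at 58 nm, 13.4 ± 1.31 FPKM at 35 nm and 7.54 ± 0.738 FPKM in controls. FLNA, which crosslinks actin, averaged 489 ± 18.6 FPKM at 58 nm, 585 ± 23.3 FPKM at 35 nm and 424 ± 5.29 FPKM in controls. SRF itself rose at 35 nm (0.42, adjusted p = 4.72e-05). The count at 58 nm against control was 3 with no filter on low values and without control library 2, 3 or 4 or 58 nm library 2, each time with 0 fallen, and the count at 58 nm against 35 nm was 9 without 58 nm library 1.

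**Figure D5:**
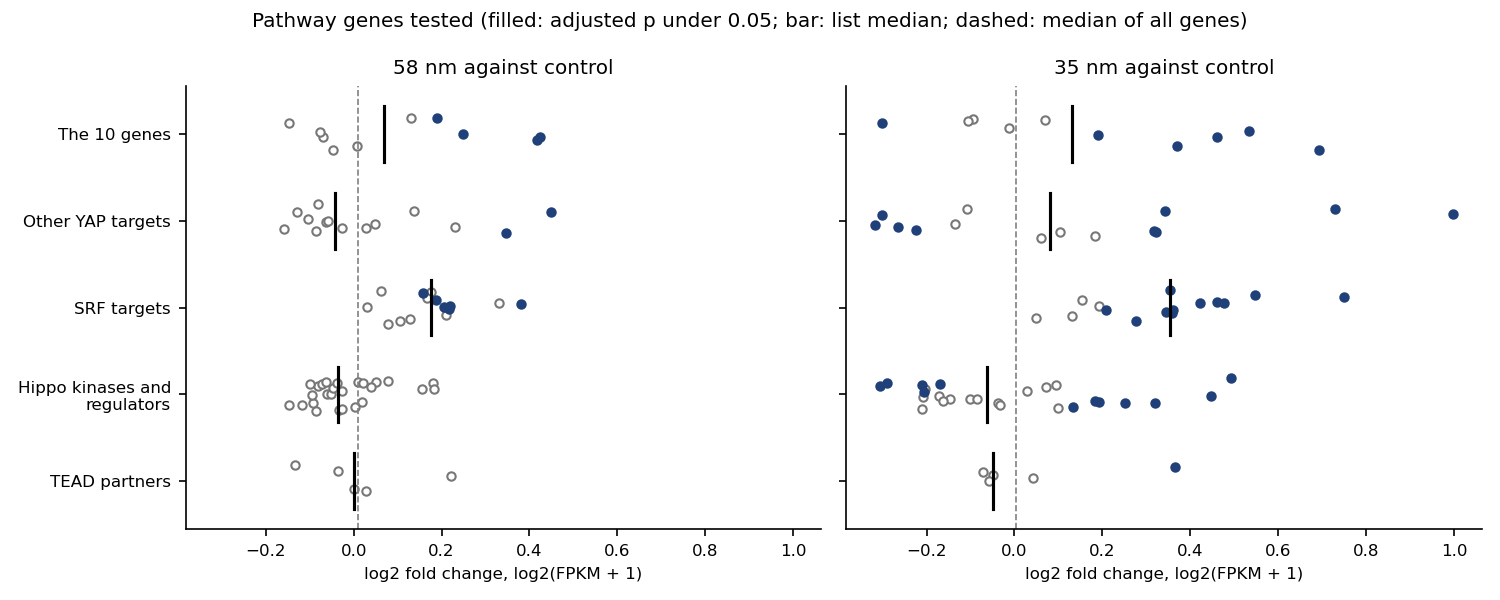
Log2 fold changes on the log2(FPKM + 1) scale of the tested genes of 5 lists, at 58 nm and at 35 nm, each against control; filled points have an adjusted p under 0.05, black bars are list medians and the dashed line is the median of all genes tested. The filled SRF targets all lie right of 0 (6 at 58 nm and 11 at 35 nm), and Hippo kinases and regulators lie on both sides at 35 nm (7 higher and 5 lower).

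For AXL, the genes of its receptor family were read as well, with 3 of 4 tested. GAS6, the ligand of AXL, averaged 38.3 ± 1.71 FPKM at 58 nm, 43.4 ± 2.70 FPKM at 35 nm and 31.3 ± 2.20 FPKM in controls. It rose by a log2 fold change of 0.28 at 58 nm (adjusted p = 0.0136) and of 0.46 at 35 nm (adjusted p = 6.42e-05). At 35 nm the receptor TYRO3 rose (0.31, adjusted p = 0.00424) and the ligand PROS1 fell (-0.29, adjusted p = 0.00216). Over all genes tested, 4.13% were called at 58 nm against control and 35.4% at 35 nm against control. Of 4 other CCN genes, the family of CYR61 and CTGF, WISP1 was the 1 tested, with 27.2 ± 0.971 FPKM at 58 nm, 27.2 ± 1.56 FPKM at 35 nm and 29.1 ± 1.81 FPKM in controls, and it was not called.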

How the data were processed

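RNA sequencing values of 12 libraries in 3 groups of 4 were used. The authors deposited 1 table of FPKM values with gene lengths, per the file headers; Bowtie 0.12.2 and hg19 are named in the submitters' processing notes. The table's identifiers, positions and lengths equalled GENCODE 29 for 58735 of 58735 genes, so gene coordinates are GRCh38; the sources used here give no counting tool, strand setting or treatment of multiple alignments. FPKM times length gave whole reads for 100% of values, within 0.01 reads. Values were fitted as log2(FPKM + 1) with limma 3.58.1 in R 4.3.3 (trended, robust prior), 3 group means and two-sided tests, over 12176 genes averaging at least 1 FPKM. The fit was tested on simulated data without GC or length trends, so that test does not cover the biases of these libraries. Low genes' fold changes are understated. FPKM ratios were tested by exact permutation of samples.

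The 10 genes, the lists and the named genes were chosen with earlier results of these data known. Named are the 10 genes, list members, overlapping neighbours and the 5 genes most like CYR61 and CTGF. Some results that this rule covers are not reported here. In sequences, a match counts a whole motif. Alternatives were another pseudocount (0.1), no filter or 5 FPKM, other scalings, length and GC trends removed, a replicate block, each library left out and, chosen after seeing the data, limma-voom on recovered reads.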

Additional observations from a re-analysis of the deposited data

Results flagged for a closer look

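In 39 groups of 4 libraries tested for a value far from the others, 4 values stood apart, and chance gives about 1 in 20. WWTR1 was lowest in 58 nm library 1, at 12.4 FPKM, and in 35 nm library 3, at 10.9 FPKM. CTGF was highest of its group in 58 nm library 2, at 234 FPKM. The LATS2 to LATS1 ratio was highest in 58 nm library 1, at 2.11. Over 12176 genes, limma called a difference between the particle sizes for 3 of the 10 genes, where 11.4% of all genes tested were called. The log2 fold change at 58 nm against 35 nm was -0.14 for LATS2 (adjusted p = 0.0421). It was -0.27 for CYR61 (adjusted p = 0.00264) and -0.27 for AXL (adjusted p = 0.000852). All 3 genes were lower in 4 of 4 libraries at 58 nm. The LATS2 call held under 6 of 21 alternatives, the CYR61 call under 20 and the AXL call under 21.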

How the results depend on the processing

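Of 630 recomputed fold changes of the 10 genes (30 values under 21 alternatives), 582 kept their direction and side of the threshold, 19 lost the call, 14 gained it and 15 turned. None of the 15 that turned was called. At 58 nm against control TEAD1 turned to 0.00032 with length and GC trends removed and to 0.00091 without 58 nm library 1, and ran from -0.10 to 0.00091 with single libraries left out. There ANKRD1 turned to -0.0068 under upper-quartile rescaling, -0.056 with the length trend removed, -0.029 with length and GC trends removed, and ran from -0.069 to 0.047 with single libraries left out. At 35 nm against control TEAD1 turned to 0.059 with length and GC trends removed, ANKRD1 to -0.055 with the length trend removed and -0.0055 without control library 1 (at most 0.11 with another library left out), and LATS2 to 0.0054 without control library 4. At 58 nm against 35 nm TEAD1 turned to -0.0043 with the length trend removed, -0.059 with length and GC trends removed and -0.0095 without 58 nm library 3 (at most 0.095, without 58 nm library 1). With no filter on low values, which tests more genes, 252 genes were called at 58 nm against control, beside 503, and 723 at 58 nm against 35 nm, beside 1382. Of the 10 genes, 5 were called at 58 nm against 35 nm with a filter at 5 FPKM and 1 under quantile normalization; the cause was not tested. With single libraries left out, genes called ran from 230 to 558 at 58 nm against control, from 3482 to 4682 at 35 nm against control and from 723 to 2324 at 58 nm against 35 nm, and of the 10 genes 3 to 5, 6 and 2 to 4 were called in the same order. At 58 nm against control, counts moved most without control library 2 (266), 3 (230) or 4 (290) and 58 nm library 2 (270) or 3 (319). At 58 nm against 35 nm they did so without 35 nm library 1 (799) or 3 (878) and 58 nm library 1 (2324), 3 (767) or 4 (723). The CYR61 to CTGF log2 difference at 58 nm against control, 0.0083, ran from -0.036 to 0.044. Calls at 35 nm against control split into 2463 higher and 1852 lower, and into 1955 and 2419 under upper-quartile rescaling; higher calls made 52.7% at 58 nm against control, 57.1% at 35 nm against control and 31.2% at 58 nm against 35 nm, and 43.1%, 44.7% and 48.2% after that rescaling. They made 42.2%, 50.9% and 43.8% under quantile normalization, 38.1%, 53.3% and 39.3% with length and GC trends removed, and 47.2%, 48.3% and 46.9% with limma-voom. ANKRD1 had the fewest reads of the 10 genes, 163 to 222 per library, and the part of depth in its values was not tested. The replicate number as a block gave 453, 4187 and 1272 calls in the same order, and 4, 6 and 2 of the 10 genes. Little sign of pairing by number was seen. Of 12 same-number correlations of deviations 1 was over 0.1, at 0.159, and 3 of 12 libraries correlated best with their own number. The deviations also carry the GC and length bias of each library, so this check cannot settle whether the numbers mark pairs. The planned edgeR and DESeq2 fits were not run.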
